A study of Mus musculus with 24 samples.

Results

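The voltage-gated calcium channel alpha1 genes encode the pore-forming subunits through which calcium enters excitable cells when the membrane depolarises. The 9 genes Cacna1a to Cacna1i were taken by symbol from the 35191 genes of a count table of mouse pituitary, and all 9 were among the 21927 genes with enough counts to be tested. RNA sequencing had been done on 24 pituitary libraries in 8 groups of 3, from females and males of 4 genotypes. Egr1cKO carried floxed Egr1 and Cre, labelled FF (+), and Egr1cKO control carried floxed Egr1 without Cre, labelled FF (-). Cre control carried Cre and unfloxed Egr1, labelled wt (+), and the complete wild type had neither, labelled wt (-). Egr1 encodes a zinc-finger transcription factor induced early after stimulation, and Egr1cKO stands for its conditional knockout. The sources used here name no Cre driver, strain or age, and whether each library was 1 animal or a pool is not stated, so p-values measure the spread between these libraries.

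Alpha1 subunits fall into classes by their currents. The L-type genes Cacna1c, Cacna1d and Cacna1f give long-lasting currents sensitive to dihydropyridines. Cacna1a, Cacna1b and Cacna1e give the P/Q-, N- and R-type currents best known at nerve terminals, and Cacna1g, Cacna1h and Cacna1i give T-type currents that open near the resting potential. In pituitary endocrine cells, calcium entry through such channels during spontaneous electrical activity is coupled to hormone secretion.

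Total counts were 15486069 to 26255343 per library. Female wild type replicate 1 stood apart, with 10.06% of its counts from mitochondrial genes against 2.14% and 2.695% in the other female wild type libraries, so results that use this group are given with and without it where they changed. The mitochondrial share also moved with the groups: it was 8.73% to 10.42% in female Egr1cKO, against 3.498% to 6.87% in female Egr1cKO control, and 5.52% to 6.69% in female Cre control. In the 12 male libraries it was 2.08% to 4.796%. The part of the mitochondrial share in the results below was not tested. Floxed and unfloxed libraries carry separate series of numbers in their titles, and floxing and that numbering cannot be told apart. Egr1 itself ranged from 7.55 to 162 CPM (counts scaled by TMM to a common library size) in female Egr1cKO, against 9.79 to 34.2 CPM in female Egr1cKO control, which overlapped. It ranged from 58.3 to 238 CPM in male Egr1cKO, against 22.7 to 51.1 CPM in male Egr1cKO control, where every Egr1cKO library was higher. The Egr1 count was thus not lower in Egr1cKO than in Egr1cKO control in either sex. In Cre control it ranged from 61.7 to 486 CPM in females and from 25.3 to 486 CPM in males, which overlapped Egr1cKO in each sex. Its median was 84.5 CPM in the 12 libraries with Cre, against 33.0 CPM in the 12 without. A count over the whole gene cannot show the loss of an exon. The tissue was recognisable by its hormones: Prl, Gh, Pomc, Tshb and Fshb had counts in all 24 libraries. Markers of the posterior lobe and of other cell types were also present, although the labels name the cell type as endocrine. Several comparisons below use the same libraries: the pooled contrasts and the interactions are built from the groups of the single comparisons. In bulk RNA, fewer cells of a type and less RNA per cell cannot be told apart.

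Cacna1d, whose L-type channel opens at lower voltages than that of Cacna1c, was the leading alpha1 messenger. Per kilobase of exon, its level had a median of 14.99 CPM per kb over the 24 libraries, with a range of 9.33 to 26.1, and it was above every other member in each library. Cacna1a followed with a median level of 8.12 CPM per kb, and exceeded Cacna1b in 20 of 24 libraries. Cacna1b had a median level of 5.54 CPM per kb and Cacna1c of 3.48. Cacna1i, Cacna1g and Cacna1h came next with medians of 2.27, 2.26 and 2.01 CPM per kb, with Cacna1i above Cacna1g in 12 of 24 libraries and Cacna1g above Cacna1h in 13. Within each sex the order was another one: Cacna1g had a median level of 4.48 CPM per kb in females, against 1.12 in males, and Cacna1i of 2.19 in females, against 2.35 in males, where Cacna1i was above Cacna1g in 11 of 12 libraries. Cacna1f and Cacna1e were lowest over all libraries, with median levels of 0.776 and 0.607 CPM per kb. In the 6 female libraries with Cre, however, Cacna1g ranked 3, at a median level of 6.996 CPM per kb and above Cacna1b in 6 of 6, and Cacna1f ranked 6, at 3.24 CPM per kb and above Cacna1i in 6 of 6. In the 6 female libraries without Cre, Cacna1g ranked 6 at 3.28 CPM per kb and Cacna1f ranked 9 at 0.566. When the longest transcript replaced the union of exons as the length, Cacna1b and Cacna1c no longer stood apart, with Cacna1b higher in 13 of 24 libraries in place of 22. The tenth alpha1 gene, Cacna1s of skeletal muscle, had 18 counts in all, was at 0 in 21 of 24 libraries and was not tested.

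The L-type genes together made up a median of 47.0% of the summed alpha1 level per kb, with a range of 40.2% to 51.3% over the 24 libraries. Cacna1f took 6.37 ± 1.52% of the alpha1 level in female Egr1cKO and 1.70 ± 0.528% in female Egr1cKO control (SD, n = 3 each). It took 6.15 ± 0.869% in female Cre control and 1.004 ± 0.405% in female wild type (SD, n = 3 each). Cacna1g took 15.5 ± 4.67% in female Egr1cKO, against 5.24 ± 0.222% in female Egr1cKO control, and 13.2 ± 0.476% in female Cre control, against 7.99 ± 2.26% in female wild type (SD, n = 3 each). These shares are descriptions and were not tested.

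**Figure D1:**
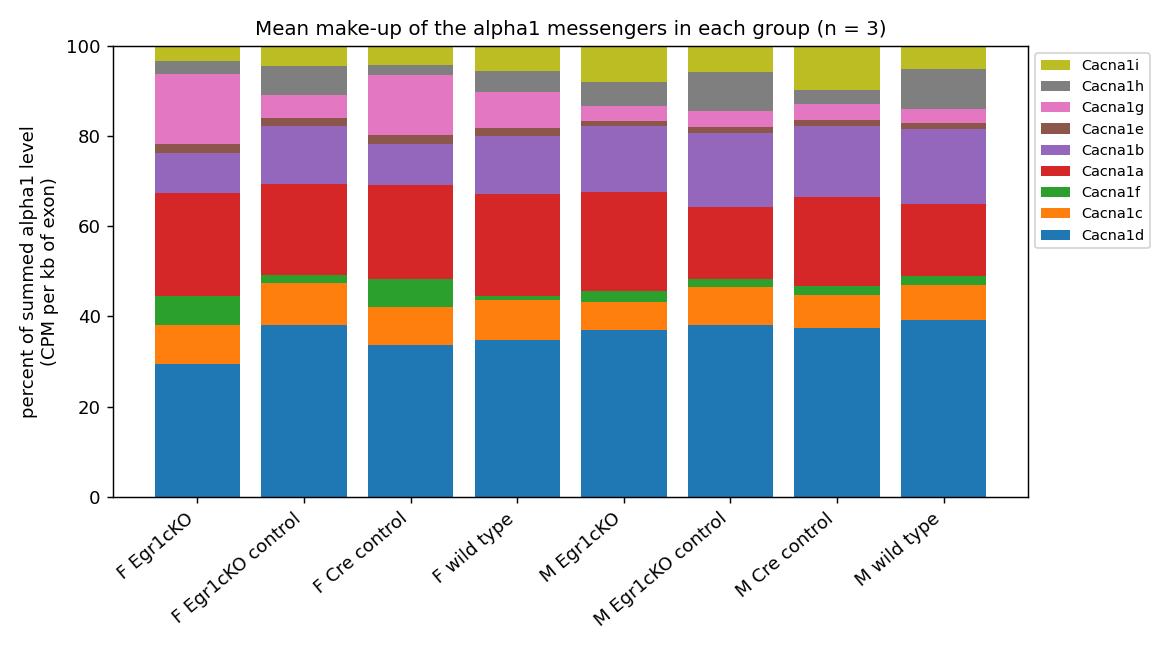
Mean share of each alpha1 gene in the summed alpha1 level (percent, CPM per kb of exon) in the 8 groups of 3 libraries, females on the left. Cacna1d is the largest block in every group, and the Cacna1f and Cacna1g blocks are widest in the female groups with Cre.

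**Figure D2:**
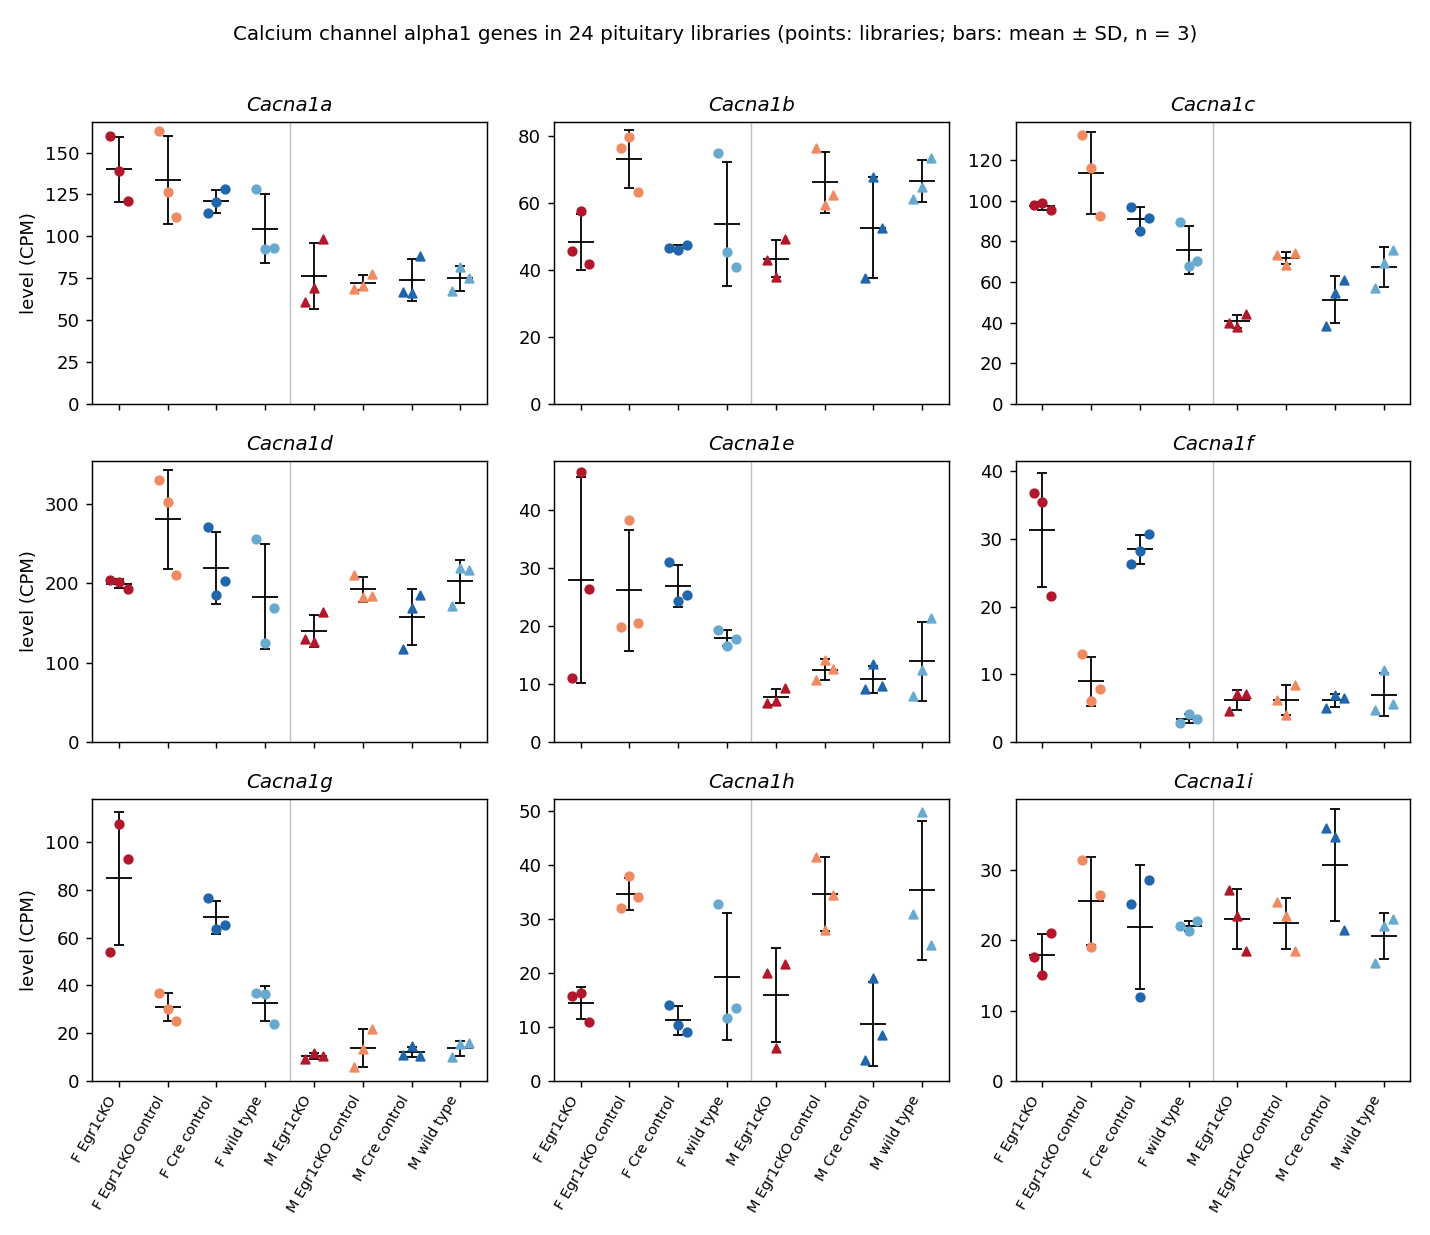
Level (CPM, linear axis from 0) of the 9 alpha1 genes in each of 24 libraries, with circles for females and triangles for males; bars give the mean ± SD of 3 libraries. Cacna1f in the 6 female libraries with Cre lies between 21.6 and 36.7 CPM, above all other libraries.

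Carrying Cre went with a higher level of Cacna1f and, in floxed mice, of Cacna1g in females. In male comparisons no member passed the test. In females, Egr1cKO against Egr1cKO control gave 2 of 9 members higher and 0 lower, beside 2.21% of all genes tested called in either direction and 0.762% called higher. Cre control against wild type gave 1 of 9 higher and 0 lower in females, beside 1.21% of all genes called in either direction and 0.369% called higher. Without female wild type replicate 1 that comparison called 3603 of 23210 genes, in place of 265 of 21927, and 2 members. The median log2 fold change over the 9 members was -0.22 for Egr1cKO against its control and 0.26 for Cre control against wild type in females, against -0.05 and -0.04 over all genes tested.

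Cacna1f, on chromosome X (GRCm38, 7607083 to 7635196, plus strand), encodes the L-type channel best known from photoreceptor terminals in the retina. It had 36.7, 35.5 and 21.6 CPM in female Egr1cKO, against 13.0, 6.04 and 7.91 CPM in female Egr1cKO control. It had 26.4, 28.2 and 30.7 CPM in female Cre control, against 2.79, 4.24 and 3.47 CPM in female wild type. In both pairs every library with Cre was above every library without it, and the groups did not overlap. Cacna1f rose by 1.79 on the log2 scale (SE 0.336, edgeR adjusted p = 0.00443) in female Egr1cKO. In female Cre control it rose by 3.02 (SE 0.357, edgeR adjusted p = 6.15e-05), or 8.09-fold, and ranked 2 by p among all genes tested. Both calls held in each of the 6 fits that left out 1 library.

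In males, Cacna1f had 4.58, 7.14 and 7.15 CPM in Egr1cKO, against 6.31, 3.98 and 8.48 CPM in Egr1cKO control. It had 5.10, 6.97 and 6.55 CPM in male Cre control, against 4.82, 10.6 and 5.68 CPM in male wild type. These groups overlapped, and neither male comparison passed the test. The difference between the sexes in the effect of Cre was itself tested. The female effect of Cre on Cacna1f exceeded the male effect by 3.20 on the log2 scale (SE 0.482, edgeR adjusted p = 0.0101), 1 of 9 members called, beside 0.128% of all genes called in either direction and 0.0638% called higher. Without female wild type replicate 1 its adjusted p was 9.7e-05, and Cacna1c and Cacna1d were called as well, among 4339 genes in place of 28. For Egr1cKO against its control the female minus male difference of Cacna1f was 1.78 on the log2 scale (SE 0.471) and did not pass (edgeR adjusted p = 0.285), and 0 of 9 members were called, beside 0.0228% of all genes. Unadjusted, 1851 genes had an edgeR p under 0.05 in that interaction, and DESeq2 called 2 members there, Cacna1f and Cacna1g. The number of all genes called by DESeq2 there is not given here, so nothing is read from these 2 calls.

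The markers of several cell types moved with Cacna1f in females. The summed melanotrope markers, 4 genes including Pomc and Pcsk2, were 52184 to 227856 CPM in the 6 female libraries with Cre, against 11873 to 41329 CPM in the 6 without. Most of this sum was Pomc, with 28080574 counts in all, against 352285 for Oacyl, 283238 for Pcsk2 and 41010 for Pax7. Pomc is also a corticotrope marker, so the sum cannot tell these cell types apart. The summed corticotrope markers were 50856 to 224829 CPM in female libraries with Cre, against 11712 to 40252 CPM without. The summed posterior lobe markers were 171 to 281 CPM in female libraries with Cre, against 70.4 to 164 CPM without. The summed neuron markers were 29.7 to 73.4 CPM in female libraries with Cre, against 12.1 to 32.9 CPM without, which overlapped. Prl, the lactotrope marker, went the other way, with 20819 to 75588 CPM in female libraries with Cre, against 81226 to 151155 CPM without. Of the melanotrope list, Pomc and Pcsk2 rose in female Egr1cKO, and 0 of 4 were called in female Cre control, where the Cacna1f difference was larger. In males the melanotrope sums were 31051 to 113399 CPM with Cre, against 7419 to 48904 CPM without, while Cacna1f was 4.58 to 7.15 CPM with Cre, against 3.98 to 10.6 CPM without. The part of these cell types in the Cacna1f result was not tested. The pineal markers Crx, Asmt and Aanat were at 0 in 22, 16 and 9 of 24 libraries. Of the genes within 50 kb of Cacna1f, chosen after values were seen, Ccdc22 stayed at or below 0.544 CPM in all libraries. Syp, the synaptophysin gene, averaged 179 ± 39.9 CPM in female Egr1cKO and 138 ± 3.71 CPM in female Egr1cKO control, and 215 ± 18.0 CPM in female Cre control and 157 ± 8.83 CPM in female wild type (SD, n = 3 each). Prickle3, which lies farther along the same side, had 10.3 to 17.5 CPM in female Egr1cKO, against 15.4 to 22.9 CPM in female Egr1cKO control. It had 12.8 to 16.4 CPM in female Cre control, against 7.35 to 19.1 CPM in female wild type.

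**Figure D3:**
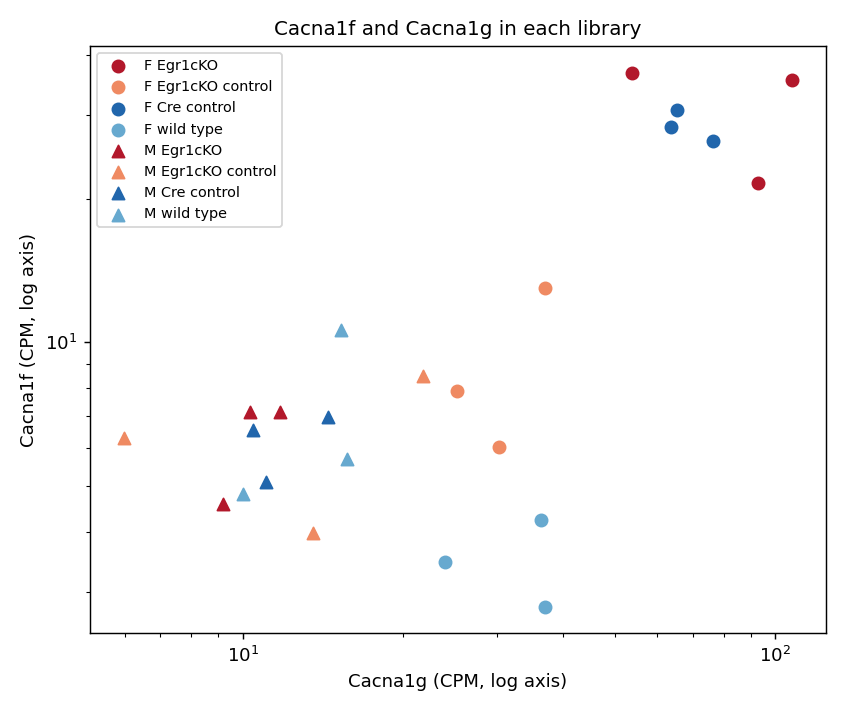
Level of Cacna1f against Cacna1g (CPM, both axes logarithmic) in each of 24 libraries, coloured by genotype, with circles for females and triangles for males. The 6 female libraries with Cre sit apart at the upper right, at 21.6 to 36.7 CPM of Cacna1f and 53.9 to 108 CPM of Cacna1g.

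The letters before the start of Cacna1f are shown because the study targeted a DNA-binding factor and this gene had the largest change with Cre among the members in females. The 250 bases before the RefSeq start (GRCm38.p6, plus strand, chrX:7606853-7607102) hold no match to the EGR motif letters GCGTGGGCG or GCGNGGGCG or to the oestrogen response element letters GGTCA and TGACC with 3 bases between them, on either strand.
Cacna1f: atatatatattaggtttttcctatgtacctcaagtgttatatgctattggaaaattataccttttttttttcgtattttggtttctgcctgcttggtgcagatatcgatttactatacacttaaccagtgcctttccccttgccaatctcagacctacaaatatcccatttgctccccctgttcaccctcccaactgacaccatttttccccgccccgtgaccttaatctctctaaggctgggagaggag
Over 32851 RefSeq promoter windows of 300 bases, 0.612% hold GCGTGGGCG, 5.55% hold GCGNGGGCG, a count that includes windows with GCGTGGGCG, and 0.0700% hold the oestrogen response element letters. The RefSeq promoter table matched 6 of the 9 members, with 9 windows in all, and Cacna1a, Cacna1g and Cacna1h had none there. A match is a description of letters only.

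Cacna1c, the L-type gene of heart, smooth muscle and endocrine cells, was lower in male Egr1cKO libraries without passing the test. It had 39.5, 38.0 and 44.3 CPM in male Egr1cKO, against 73.1, 68.4 and 74.2 CPM in male Egr1cKO control, and the groups did not overlap. On the log2 scale the change was -0.82 (SE 0.178, edgeR adjusted p = 0.0940), and 0 of 9 members were called in that comparison, beside 0.041% of all genes. In male Cre control Cacna1c had 38.3, 54.5 and 61.1 CPM, against 56.8, 69.6 and 75.9 CPM in male wild type, which overlapped. Cre control against wild type in males also called 0 of 9 members, beside 0.233% of all genes. At an unadjusted p under 0.05, 1441 genes passed in male Egr1cKO and 2378 in male Cre control. Cacna1d had 130, 126 and 163 CPM in male Egr1cKO, against 211, 183 and 184 CPM in male Egr1cKO control, and its log2 fold change there missed the threshold (edgeR adjusted p = 0.755).

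Taking all 12 libraries with Cre against all 12 without, 4 of 9 members were called, 1 higher and 3 lower, beside 6.89% of all genes called in either direction, 2.8% called higher and 4.08% called lower. The median log2 fold change of the 9 members was -0.09, against -0.03 over all genes. Cacna1f was the member that rose, by 1.16 on the log2 scale (SE 0.168, edgeR adjusted p = 6.19e-05). This contrast averages sexes whose Cacna1f response differed. Cacna1b, Cacna1c and Cacna1h fell.

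Cacna1h, a T-type gene on chromosome 17 (GRCm38, 25374285 to 25433783, minus strand), had 15.8, 16.3 and 10.9 CPM in female Egr1cKO, against 32.0, 37.9 and 34.1 CPM in female Egr1cKO control. Male Egr1cKO had 20.04, 6.02 and 21.8 CPM, against 41.6, 27.9 and 34.4 CPM in male Egr1cKO control. Male Cre control had 3.95, 19.1 and 8.59 CPM, against 30.9, 49.8 and 25.2 CPM in male wild type. In these 3 pairs all libraries with Cre were lower than those without. Female Cre control had 14.1, 10.4 and 9.09 CPM, against 32.9, 11.6 and 13.5 CPM in female wild type, and these overlapped; the high wild type value was that of replicate 1, the library that stood apart. Over all carriers Cacna1h fell by 1.23 on the log2 scale (SE 0.241, edgeR adjusted p = 0.0027), a call kept in all 24 fits that left out 1 library, although no single pair passed the test (edgeR adjusted p from 0.155 to 0.70 over the 3 pairs that did not overlap). With no filter on low counts Cacna1h was called in each of these 3 pairs, and it was also called in female Egr1cKO with the groups compared alone and in male Cre control by DESeq2.

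Cacna1b encodes the N-type channel, the target of omega-conotoxin. It ranged from 37.5 to 67.7 CPM in the 12 libraries with Cre, with a median of 46.1, against 40.8 to 79.6 CPM with a median of 64.0 in the 12 without. The ranges overlapped, and no single pair passed the test (edgeR adjusted p from 0.129 to 0.694). In female Cre control the change was -0.205 on the log2 scale, with 45.8 to 47.5 CPM, against 75.0, 45.3 and 40.8 CPM in female wild type. The high wild type value was that of replicate 1, the library that stood apart. Over all carriers Cacna1b fell by 0.44 on the log2 scale (SE 0.107, edgeR adjusted p = 0.0114), in all 24 fits that left out 1 library. Cacna1c fell by 0.29 over all carriers (SE 0.0881, edgeR adjusted p = 0.0413), but this call was kept in 9 of 24 such fits, with an adjusted p of up to 0.0889 without male wild type replicate 3. This contrast too averages the sexes: Cacna1c had a mean of 94.3 CPM in female libraries with Cre and 94.8 CPM in those without, and of 45.96 CPM in male libraries with Cre and 69.7 CPM in those without. In female Cre control its change was 0.27 on the log2 scale (edgeR adjusted p = 0.472), and the female minus male difference of the Cre effect was 0.66 (edgeR adjusted p = 0.165). Markers of the growth hormone and prolactin lineage moved with these genes: Prl, Gh, Ghrhr and Pou1f1 fell in carriers. Summed somatotrope markers were 41205 to 121655 CPM with Cre, against 50259 to 374709 CPM without, and Ghrhr was among the 3 genes most like Cacna1b and Cacna1h over the libraries. Their part in the result was not tested.

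The 250 bases before the RefSeq start of Cacna1b are shown because it was the called member with the most EGR motif letters in its window (GRCm38.p6, minus strand, chr2:24763153-24763402). Capitals mark 2 matches to GCGNGGGCG, which begin at -134 and -122 from the start and do not overlap.
Cacna1b: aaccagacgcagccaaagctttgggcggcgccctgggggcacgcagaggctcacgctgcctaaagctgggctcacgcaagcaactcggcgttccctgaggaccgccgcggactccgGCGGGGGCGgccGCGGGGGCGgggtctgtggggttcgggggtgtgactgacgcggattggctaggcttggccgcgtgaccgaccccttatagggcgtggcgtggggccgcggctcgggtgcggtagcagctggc
Cacna1c and Cacna1d each had 1 match to GCGNGGGCG in 1 of their windows, at -158 and 20 from the start, and none of the 9 windows held the exact letters GCGTGGGCG. The full window of Cacna1b was 72.3% G or C, and that of Cacna1f 43.7%.

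Cacna1g, the T-type gene on chromosome 11 (GRCm38, 94408391 to 94474198, minus strand), had 53.9, 108 and 92.9 CPM in female Egr1cKO, against 36.9, 30.2 and 25.3 CPM in female Egr1cKO control. It had 76.5, 63.8 and 65.3 CPM in female Cre control, against 37.0, 36.3 and 24 CPM in female wild type. Neither pair overlapped. Cacna1g rose by 1.46 on the log2 scale in female Egr1cKO (SE 0.312, edgeR adjusted p = 0.0128), a call kept in 2 of 6 fits that left out 1 library, with an adjusted p of up to 0.0665 without female Egr1cKO control replicate 2. Its log2 fold change in female Cre control was 1.08 (SE 0.310) and missed the threshold (edgeR adjusted p = 0.0776); without female wild type replicate 1 it passed (adjusted p = 0.0297), among the 3603 genes called in that fit. In males Cacna1g lay between 9.17 and 14.4 CPM with Cre, against 5.97 to 21.8 CPM without, and these overlapped. The difference of its Egr1cKO effect between the sexes was 1.87 on the log2 scale (SE 0.442, edgeR adjusted p = 0.207).

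Cacna1a, Cacna1d, Cacna1e and Cacna1i were not called in any comparison of Cre with no Cre. Cacna1e, the R-type gene, was variable in females, with 11.1, 46.4 and 26.3 CPM in Egr1cKO, against 19.7, 38.1 and 20.6 CPM in Egr1cKO control. Female Cre control had 24.3 to 31 CPM, against 16.5 to 19.3 CPM in female wild type, without overlap (edgeR adjusted p = 0.432). Male Egr1cKO went the other way, with 6.83 to 9.275 CPM, against 10.7 to 14.15 CPM in its control, also without overlap (edgeR adjusted p = 0.814). Male Cre control and male wild type overlapped. Cacna1i, a T-type gene best known in the thalamus, ranged from 11.9 to 35.9 CPM with Cre, against 16.8 to 31.3 CPM without.

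**Figure D4:**
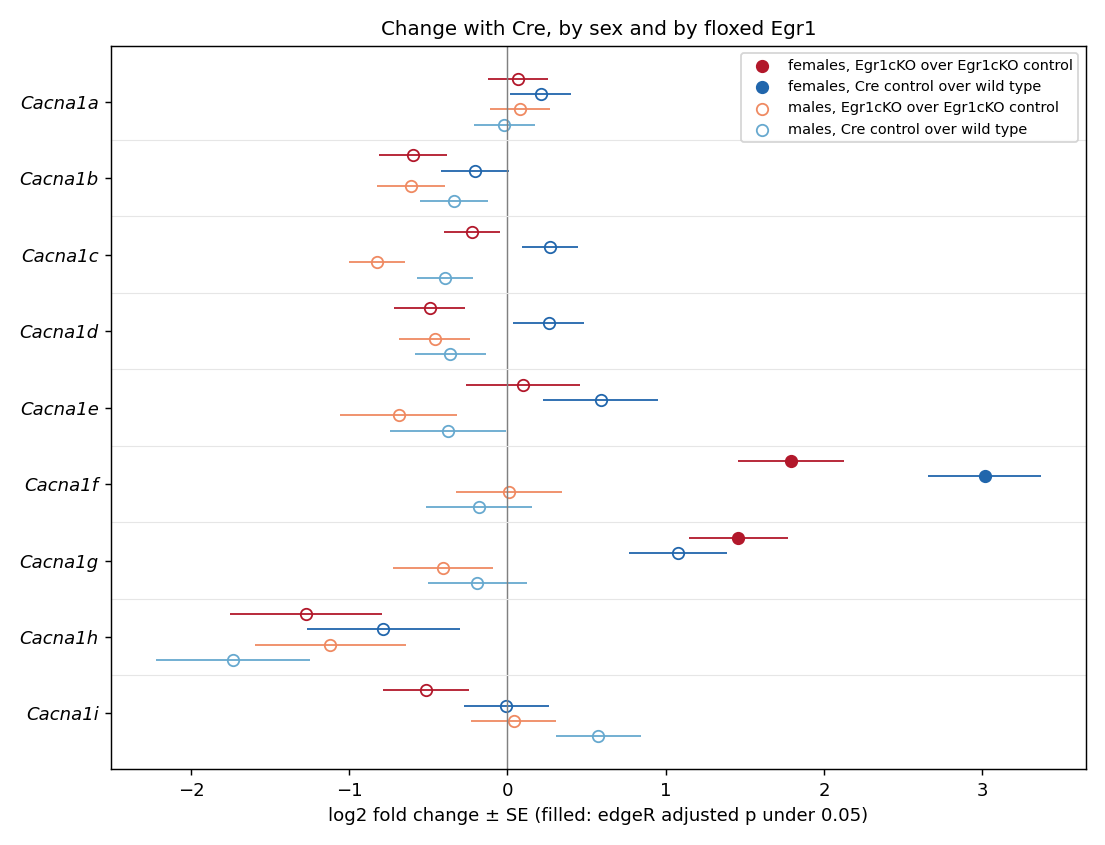
Log2 fold change with its SE (horizontal axis) of the 9 alpha1 genes for Egr1cKO over Egr1cKO control and Cre control over wild type, in each sex; filled points passed edgeR at an adjusted p under 0.05. Cacna1f in both female comparisons, at 1.79 and 3.02, and Cacna1g in female Egr1cKO, at 1.46, are the filled points.

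The effect of Egr1cKO beyond that of Cre alone was taken as the difference of the 2 effects within a sex. No member was called in females, beside 0.00456% of all genes, or in males, beside 0% of all genes, and at an unadjusted p under 0.05 there were 2151 genes in females and 233 in males. DESeq2 called 0 members in both. In females the difference for Cacna1f was -1.23 on the log2 scale (SE 0.470, edgeR adjusted p = 0.419), and that for Cacna1d was -0.75 (SE 0.319, edgeR adjusted p = 0.461). Without female wild type replicate 1, Cacna1d passed (edgeR adjusted p = 0.0211), among 1282 genes called in place of 1.

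Egr1cKO control against wild type called 0 of 9 members in either sex, beside 0% of all genes in each. Cacna1f in females had 13.0, 6.04 and 7.91 CPM in Egr1cKO control, against 2.79, 4.24 and 3.47 CPM in wild type, with no overlap and a difference of 1.36 on the log2 scale (SE 0.342, edgeR adjusted p = 0.0996). At an unadjusted edgeR p under 0.05 there were 3247 genes in females and 196 in males. DESeq2 called 2 members in females and 0 in males. Its number of all genes called is not given here, and the edgeR shares are no background for it, so nothing is read from these counts. Without female wild type replicate 1, Cacna1b, Cacna1c, Cacna1d and Cacna1f were called higher in females, among 4248 genes called of 23210 tested.

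More members were called by sex than by Cre, as were more of all genes, at 21.7% by sex and 6.89% in Cre carriers. Over all genotypes, 6 of 9 members were higher in females and 0 lower, beside 21.7% of all genes called in either direction and 9.99% called higher. The median log2 difference, female minus male, was 0.73 over the 9 members and -0.06 over all genes. The members that were higher were all 3 L-type genes, Cacna1a, Cacna1e and Cacna1g. Cacna1b, Cacna1h and Cacna1i missed the threshold (edgeR adjusted p = 0.807, 0.513 and 0.483).

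Cacna1g had the largest difference. It ranged from 24 to 108 CPM in the 12 female libraries, with a median of 45.4, against 5.97 to 21.8 CPM with a median of 11.4 in the 12 male libraries, and the sexes did not overlap. Its log2 difference was 1.98 over all genotypes (SE 0.160, edgeR adjusted p = 3.57e-09), or 3.96-fold. Within a genotype it was 3.03 in Egr1cKO (edgeR adjusted p = 3.01e-06) and 2.51 in Cre control (edgeR adjusted p = 5.89e-05). It was 1.16 in Egr1cKO control (edgeR adjusted p = 0.104) and 1.24 in wild type (edgeR adjusted p = 0.0966), where it missed the threshold although no libraries overlapped.

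Cacna1a, the P/Q-type gene, ranged from 92.6 to 163 CPM in females with a median of 124, against 60.9 to 98.6 CPM with a median of 70.0 in males. Only male Egr1cKO replicate 3, at 98.6 CPM, lay within the female range. Cacna1a was higher in females by 0.74 on the log2 scale (SE 0.0963, edgeR adjusted p = 7.06e-06). Cacna1c ranged from 67.8 to 133 CPM in females with a median of 93.8, against 38.0 to 75.9 CPM with a median of 58.9 in males. Male Egr1cKO control, at 68.4 to 74.2 CPM, and male wild type replicates 2 and 3, at 69.6 and 75.9 CPM, lay within the female range. The Cacna1c difference was 0.73 over all genotypes (SE 0.0885, edgeR adjusted p = 2.61e-06) and 0.17 in wild type (edgeR adjusted p = 0.954).

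Cacna1e ranged from 11.1 to 46.4 CPM in females with a median of 22.4, against 6.83 to 21.4 CPM with a median of 10.2 in males. It was higher in females by 1.14 on the log2 scale (SE 0.184, edgeR adjusted p = 0.000126). Cacna1d had medians of 203 CPM in females and 177 CPM in males and overlapped widely; its difference of 0.35 (SE 0.113, edgeR adjusted p = 0.0290) was kept in 15 of 24 fits that left out 1 library, with an adjusted p of up to 0.0693 without female Cre control replicate 1. Cacna1f averaged over genotypes was higher in females by 1.007 (SE 0.168, edgeR adjusted p = 0.000168), but wild type females, at 2.79 to 4.24 CPM, lay below wild type males, at 4.82 to 10.6 CPM, a log2 difference of -1.004 that did not pass (SE 0.342, edgeR adjusted p = 0.369).

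By genotype, Egr1cKO had 5 of 9 members higher in females, beside 13.1% of all genes called in either direction and 5.49% called higher: Cacna1a, Cacna1c, Cacna1e, Cacna1f and Cacna1g. Cre control had the same 5 higher, beside 3.61% of all genes called in either direction and 1.6% called higher. Egr1cKO control had 1, Cacna1a at 0.89 on the log2 scale (SE 0.193, edgeR adjusted p = 0.0290), beside 0.451% called in either direction and 0.187% called higher, and this call was kept in 1 of 6 fits that left out 1 library, with an adjusted p of up to 0.280 without female Egr1cKO control replicate 1. Wild type had 0, beside 0.283%, with 1542 genes at an unadjusted edgeR p under 0.05. DESeq2 called 1 member there, but its number of all genes called is not given here, so nothing is read from that call. In Cre control, Cacna1a (0.71, edgeR adjusted p = 0.0378) and Cacna1e (1.31, edgeR adjusted p = 0.0455) lost their call in every fit that left out 1 library of the comparison. Cacna1c in Cre control (0.83, edgeR adjusted p = 0.0109) kept it in 4 of 6, and its adjusted p reached 0.0581 without female Cre control replicate 1. Cacna1a in Egr1cKO (0.88, edgeR adjusted p = 0.00606) kept it in 5 of 6 and lost it without male Egr1cKO replicate 1 (adjusted p = 0.0600). Of the sex differences between genotypes, those tested were the sex by Cre and sex by Egr1cKO interactions given above. Library values that also differed by sex were the summed lactotrope level, 20819 to 151155 CPM in females against 3046 to 46750 CPM in males, and the summed gonadotrope level, 88.7 to 217 CPM in females against 619 to 1938 CPM in males. The mitochondrial share differed as well, at 8.73% to 10.42% in female Egr1cKO against 2.76% to 3.795% in male Egr1cKO. The part of these cell types and of the mitochondrial share in the sex differences was not tested.

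**Figure D5:**
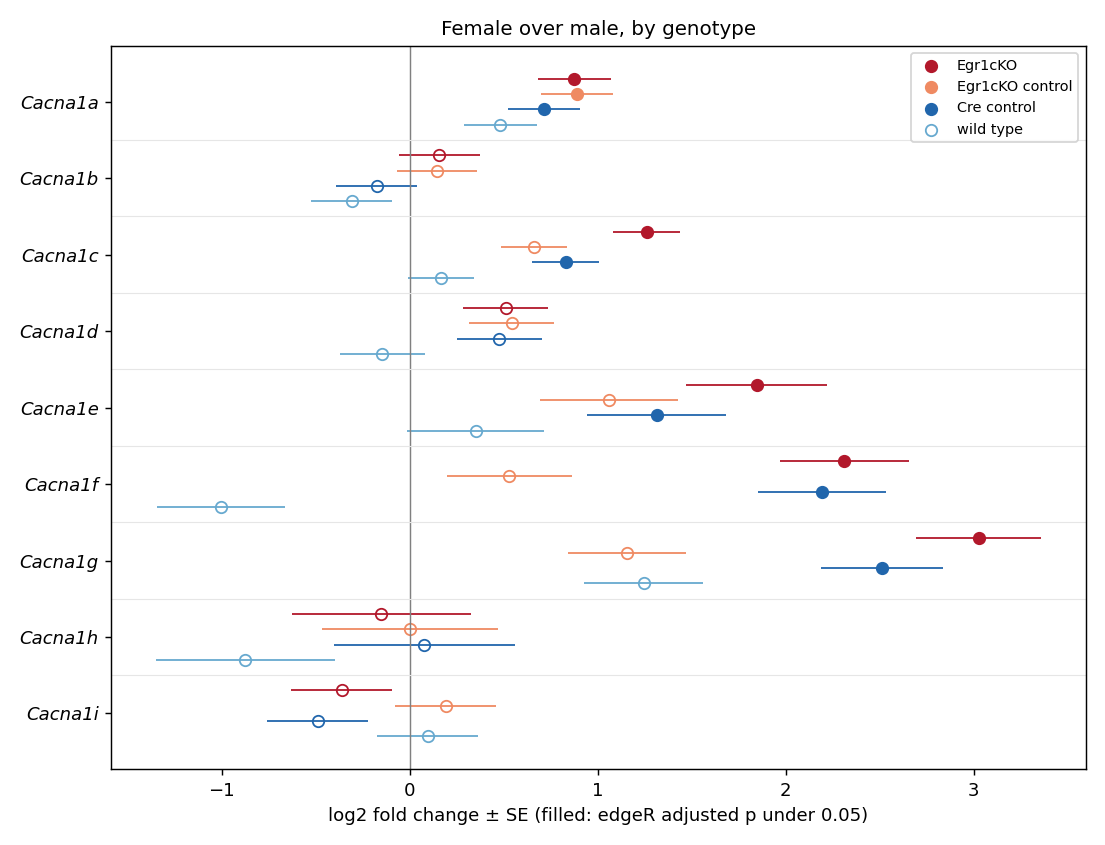
Log2 fold change, female over male, with its SE (horizontal axis) of the 9 alpha1 genes in each of 4 genotypes; filled points passed edgeR at an adjusted p under 0.05. Cacna1g has the largest differences, 3.03 in Egr1cKO and 2.51 in Cre control, and Cacna1f in wild type lies on the other side of 0, at -1.004.

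The auxiliary subunits and partners of these channels were read from lists chosen with earlier results of these data known. Their counts stand beside 6.89% of all genes called in Cre carriers and 21.7% called by sex over all genotypes. Of 4 beta subunit genes, which bring alpha1 subunits to the membrane, 0 were called with Cre and 2 were higher in females over all genotypes, Cacnb4 by 0.72 and Cacnb1 by 0.56 on the log2 scale (edgeR adjusted p = 0.00252 and 0.0116). Of 5 alpha2delta and related genes, 2 rose in Cre carriers, Cacna2d3 by 1.12 and Cachd1 by 0.59 (edgeR adjusted p = 0.00202 and 0.00623). Cacna2d3 had 3.30 to 16.9 CPM in the 12 libraries with Cre, against 0.748 to 4.77 CPM in the 12 without. By sex, Cacna2d1 was higher in females by 0.53 and Cacna2d3 lower by a log2 difference of -0.69 (edgeR adjusted p = 0.00197 and 0.0255), the second in 22 of 24 fits that left out 1 library, with an adjusted p of up to 0.0664 without male Egr1cKO replicate 1. Of 7 tested gamma genes, 0 were called with Cre, while Cacng7 was higher (0.61) and Cacng6 lower (-1.13) in females, the second in 11 of 24 fits that left out 1 library, with an adjusted p of up to 0.0733 without male wild type replicate 1.

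Of 4 RGK genes, small GTPases that inhibit these channels, Gem rose in carriers by 2.31 on the log2 scale (SE 0.520, edgeR adjusted p = 0.0119), with 15.9 to 192 CPM with Cre against 4.40 to 48.5 CPM without. Of 10 calcium release channels and junctophilins, 3 fell in carriers: Ryr1, the skeletal muscle release channel, Jph2, which tethers the release store to the surface membrane, and Itpr3, an inositol trisphosphate receptor. Ryr1 was at 1.38 to 5.46 CPM with Cre, against 4.71 to 28.3 CPM without. Skeletal muscle markers summed to 1.88 to 5.48 CPM with Cre, against 0.935 to 26.0 CPM without, and 0 of 4 tested were called. Ryr1 also fell in female Egr1cKO by 2.43 (edgeR adjusted p = 0.00991), in male Egr1cKO by 2.95 (edgeR adjusted p = 0.0207) and in male Cre control by 2.43 (edgeR adjusted p = 0.0330). These calls were kept in 4, 1 and 0 of 6 fits that left out 1 library, with an adjusted p of up to 0.0719 without female Egr1cKO replicate 3, 0.375 without male Egr1cKO replicate 2 and 0.1802 without male Cre control replicate 2. Jph2 was also called lower in female Egr1cKO, where it had no counts. By sex, Ryr3 was higher in females by 0.77, and Itpr1, Itpr3 and Jph2 were lower, by log2 differences of -0.45, -0.58 and -1.81. The Jph2 sex call was kept in 14 of 24 such fits, with an adjusted p of up to 0.0660 without female Egr1cKO replicate 1. Of 10 pacemaking partner channels, Nalcn, the sodium leak channel, fell by 0.38 and Hcn4 rose by 0.90 in carriers (edgeR adjusted p = 0.00812 and 0.0343). The Hcn4 call was kept in 14 of 24 fits that left out 1 library, with an adjusted p of up to 0.0912 without female Egr1cKO replicate 2. In female Cre control Nalcn fell by 1.02 (edgeR adjusted p = 0.00494), a call lost without female Cre control replicate 3 (adjusted p = 0.0590); over all female libraries it had 48.7 to 69.0 CPM with Cre, against 78.5 to 135 CPM without. By sex, Kcnma1, the large-conductance calcium-activated potassium channel, and Kcnn3, a small-conductance one, were lower in females by log2 differences of -0.82 and -0.85 (edgeR adjusted p = 0.000120 and 0.00188). Nalcn was lower in females by -0.37 and Hcn3 higher by 0.51 on the same scale, the second in 12 of 24 such fits, with an adjusted p of up to 0.0750 without female wild type replicate 1. Of 10 release machinery genes, Rimbp2 and Syt7 fell in carriers by 0.51 and 0.42, and Unc13a, Unc13b and Syt7 were higher in females by 0.68, 0.46 and 0.38. The Syt7 calls were kept in 10 and 9 of 24 fits that left out 1 library, with adjusted p of up to 0.0901 without female Egr1cKO control replicate 2 and 0.0819 without female Cre control replicate 1. Of 10 calcium pumps and exchangers, Slc8a3 fell by 1.02 in carriers and was higher in females by 0.96, while Atp2b4 and Atp2a3 were lower in females by log2 differences of -0.49 and -0.46. Of 5 store-operated entry genes, 0 were called with Cre, and Orai3 and Stim1 were lower in females by log2 differences of -0.84 and -0.37. Of 3 STAC adaptors, 0 were called with Cre, and Stac3 was higher in females by 0.75.

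Genes whose level ran most like a member over the 24 libraries are given as a description, since libraries share sex, genotype and cell make-up. Cacna1g ran closest to Ptpn5 (Pearson r = 0.959), Fndc9 (0.936) and Rab44 (0.922), over 24 libraries. Cacna1d ran closest to Gon4l (0.944) and Cacna1c to Ptprs (0.936). Cacna1b ran closest to Myo15 (0.919), with Ghrhr among its 3 closest (0.898), and Cacna1h ran closest to Gramd2 (0.880), with Myo15 and Ghrhr next (0.870 and 0.869). Cacna1f ran closest to Prkcd (0.858), Cacna1a to Bmp1 (0.890) and Cacna1e to Greb1 (0.860). Cacna1i had no close companion, its highest r being 0.701 with Nrg1.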

How the data were processed

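PolyA RNA of mouse pituitary was sequenced without strand information from 1.5 ug of total RNA, per the labels' protocols. The authors deposited raw counts per Ensembl gene for 24 libraries. The submitters' processing notes name Trim Galore 3.8.2, FastQC, STAR 2.7.9 and the GRCm38 build. The sources used here give no counting tool or annotation release. Columns were matched to samples by the number in the title. Of 35191 identifiers, 35077 matched GENCODE M21, which gave positions and exon lengths.

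Counts were fitted with edgeR 4.0.16 in R 4.3.3 (robust quasi-likelihood test, TMM, filterByExpr, 1 mean for each of 8 groups, 16 residual degrees of freedom, prior count 0.125), and p-values were adjusted by Benjamini-Hochberg over 21927 genes, with a threshold of 0.05. The procedure was also run on simulated data, and as that outcome is not given here, nothing is concluded from it. Alternatives were RLE scaling, library totals without Prl, Gh and Pomc, no filter, a mean of at least 1 CPM, DESeq2 1.42.0, limma 3.58.1, the groups compared alone, and each library left out. All 9 members were named in each comparison, and up to 4 called genes of each partner list. The members and lists were chosen with earlier results of these data known. Reads carry no molecular identifiers. Without strand, reads from exons shared with opposite-strand genes cannot be told apart: Cacna1a shares 3.81% of its exon bases with Gm16183, Cacna1d 4.67% with Chdh and Cacna1h 1.62% with Tpsg1. The assignment of such reads was not stated.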

Additional observations from a re-analysis of the deposited data

Results flagged for a closer look

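The effect of Cre on Cacna1f differed between the sexes: the female effect minus the male effect was 3.20 on the log2 scale (SE 0.482, edgeR adjusted p = 0.0101). Cacna1f was 26.4 to 30.7 CPM in female Cre control, against 2.79 to 4.24 CPM in female wild type, and 5.10 to 6.97 CPM in male Cre control, against 4.82 to 10.6 CPM in male wild type. All 12 fits that left out 1 library and all 7 alternative settings kept the call, with log2 values of 2.78 to 3.40 and 3.11 to 3.22.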

How the results depend on the processing

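No paired analysis was possible because the numbers in the titles name single libraries and no number is shared between groups. Counts below are of the 9 members called. With no filter on low counts there were 2 for Egr1cKO in males (Cacna1c and Cacna1h), 3 for Egr1cKO in females (Cacna1h added), 1 for Cre in males (Cacna1h), 2 for Cre in females, 2 for the sex by Egr1cKO interaction, 2 for the sex by Cre interaction, 3 for female against male in Egr1cKO control, 1 in wild type, and 1 for Egr1cKO control against wild type in females. DESeq2 called 1 for Egr1cKO in males, 1 for Cre in males (Cacna1h), 2 for Cre in females, 2 for the sex by Egr1cKO interaction, and 3, 1 and 2 for female against male in Egr1cKO control and in wild type and for Egr1cKO control against wild type in females. These settings also called more of all genes: 339 with no filter and 104 by DESeq2 in place of 9 for Egr1cKO in males, and 704 and 289 in place of 51 for Cre in males. The groups compared alone gave 1 for Egr1cKO in males, 3 for Egr1cKO in females and 3 for female against male in Egr1cKO control, and library totals without Prl, Gh and Pomc gave 3 for female against male in Cre control. Leaving out 1 library gave 1 to 2 for Egr1cKO in females, 1 to 2 for Cre in females, 0 to 1 for the sex by Egr1cKO interaction, 1 to 3 for the sex by Cre interaction, 0 to 1 for the effect beyond Cre in females, 0 to 2 for female against male in Egr1cKO control, 2 to 3 in Cre control, and 0 to 4 for Egr1cKO control against wild type in females. For most of these comparisons the number of all genes called is not given beside the member count. Added member calls there cannot be told apart from a general rise in calls. The cause of these changes was not tested. Without female wild type replicate 1, the sex by Cre interaction called Cacna1c, Cacna1d and Cacna1f. Library totals without Prl, Gh and Pomc moved the median log2 difference of all genes, female against male in Egr1cKO, to -0.23 in place of -0.11, and the share of calls that were higher to 27.9% in place of 42.1%; over all genotypes that share was 32.9% in place of 46.0%, and for Egr1cKO in females 18.7% in place of 34.5%. For the sex by Cre interaction it was 63.9% in place of 50%, and for the sex by Egr1cKO interaction 0% in place of 20%. No member with an unadjusted p under 0.05 changed direction under any setting run. With 3 libraries a group, a missed threshold does not show that levels were alike.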
